A study of Homo sapiens with 6 samples.

Results

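The genes described here are the ligand TRAIL, the receptors of TRAIL and a set of related receptors of the tumor necrosis factor (TNF) family, 10 genes in all, which were found by their symbols among the 31369 genes of the count table and the 30896 genes of the FPKM table. All 10 were present in both tables. A single one of them, TNFSF10, encodes a ligand, and the other 9 encode receptors. They were measured by RNA sequencing in HK-2, an immortalised cell line derived from the proximal tubule of a human kidney, in 3 control samples (NC, labelled wild type) and 3 samples labelled as overexpressing PPM1K (OE). PPM1K is the mitochondrial phosphatase that activates the branched-chain keto acid dehydrogenase complex. The cells of the OE group were transfected with a PPM1K plasmid by lipofection, and the sources used here do not say what the control cells received. All 6 samples carry the label day 10 and a treatment entry of chronic kidney disease, for which the methods describe no treatment, and the sample titles name short hairpins, while the genotype entries give overexpression. The genes were chosen with the difference between OE and NC already known, so their own differences are given as a description. Their p-values are not printed. Where the text says which of them passed a threshold on the adjusted p, this too is a description and not a test of the choice.

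TRAIL is a trimeric ligand at the cell surface that is also shed. It binds the death receptors TNFRSF10A and TNFRSF10B, whose cytoplasmic death domain recruits the adaptor FADD and caspase-8, and this starts apoptosis. The decoy receptors TNFRSF10C, which is held in the membrane by a lipid anchor, and TNFRSF10D, whose death domain is truncated, bind TRAIL without passing on the death signal. FAS is the receptor of Fas ligand and has a death domain, as does TNFRSF1A, the main receptor of TNF, which either builds a ubiquitin-linked complex that activates NF-kB or switches to a death complex. TNFRSF1B, the other TNF receptor, TNFRSF9 (4-1BB), known as a costimulatory receptor of T cells, and TNFRSF12A (Fn14), the receptor of TWEAK, lack a death domain. In kidney tubules some of these receptors are known for their part in injury, inflammation and cell loss.

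PPM1K itself was counted 37, 19 and 53 times in the NC samples (in the order of their replicate numbers 1, 2 and 3, as everywhere below) and 3294, 3531 and 2919 times in the OE samples. The counts of the plasmid and of the cells' own gene cannot be told apart. The total count per sample was between 34635770 and 39850802. NC replicate 2 stood apart, with a count for 26478 genes, against 22094 to 22913 in the other 5 samples, so the differences below were also computed without it. Of 8 proximal tubule markers, such as LRP2, CUBN and AQP1, none had a mean FPKM of at least 1, LRP2 and SLC22A6 had no FPKM value here, and the summed FPKM was 0.480 to 0.730 in NC and 0.360 to 0.420 in OE. The epithelial keratin KRT8 had an FPKM of 266 to 302 in NC and 202 to 217 in OE, KRT18 of 167 to 188 and 177 to 192, and the renal transcription factor PAX8 of 26.4 to 28.8 and 32.5 to 35.1. The keratin KRT19 was lower in every OE sample, at 145 to 165 against 193 to 222 in NC, the cadherin CDH2 had an FPKM of 18.4 to 19.4 in NC and 19.6 to 20.3 in OE, and PAX2 and CDH1 were at or below 0.340 in each sample. The leukocyte list (6 genes) summed to at most 0.380 and the endothelial list (4 genes) to at most 0.900 in any sample, while the fibroblast list (4 genes) summed to 2.94 to 3.10 in NC and 1.10 to 1.15 in OE. The part of these lists in the differences below was not tested.

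Of the 10 genes, 9 passed the filter on low counts and were fitted together with all 15878 genes by edgeR's quasi-likelihood test, and TNFRSF10C did not pass it. At a Benjamini-Hochberg adjusted p under 0.05, 6 of the 9 were higher in OE, namely TNFRSF1B, TNFRSF9, TNFRSF10B, FAS, TNFRSF12A and TNFRSF10A, where 24.9% of all tested genes were higher. TNFSF10 was the single gene lower, where 23.7% of all tested genes were lower, and TNFRSF10D and TNFRSF1A passed in neither direction. With a fold change above 2 also asked for, TNFRSF1B and TNFRSF9 were counted as higher (1.73% of all tested genes) and, with one below 0.5, TNFSF10 as lower (3.79% of all tested genes). On the CPM scale, which edgeR corrects for library size, the ranges of NC and OE lay apart in the same 6 genes upward (28.2% of all tested genes) and in TNFSF10 downward (27.1%). The median log2 fold change of the 9 genes was 0.47, and that of all tested genes was −0.0032. These counts describe genes that were chosen on this contrast.

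**Figure D1:**
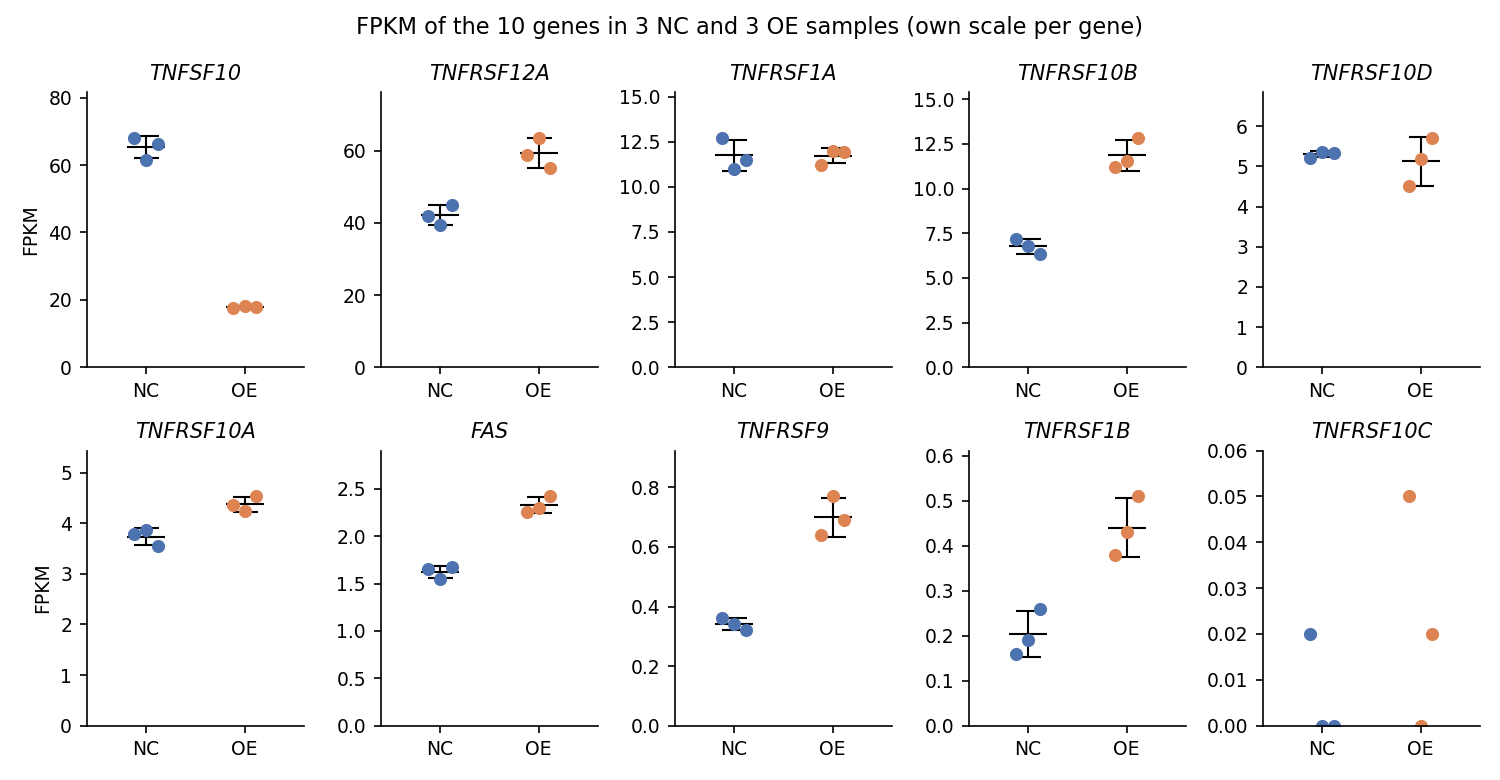
FPKM (vertical axis, a linear scale of its own for each gene) of the 10 genes in the 3 NC (blue) and 3 OE (orange) samples, with the mean and SD in black, except for TNFRSF10C, which had at most 3 counts in any sample. TNFSF10 lies at 61.65 to 68.11 in NC and at 17.47 to 18.07 in OE, while 6 receptors lie higher in OE in every sample.

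TNFSF10, the TRAIL ligand, was the most expressed of the 10 genes in NC and fell most in OE. It was counted 8752, 8216 and 8873 times in NC, against 2412, 2627 and 2372 times in OE. In CPM these were 251.5, 233 and 247 in NC and 65.3, 66.4 and 65.3 in OE, so every OE sample lay far below every NC sample. The log2 fold change was −1.89 (standard error 0.05, 95% interval −2.00 to −1.79), a level 3.71-fold higher in NC than in OE. With 1 sample left out in turn it stayed between −1.92 and −1.87. The CPM of the 3 OE samples varied by 0.992% (coefficient of variation), less than the 2.01% that counting alone would give, and that of the 3 NC samples by 3.84%, where counting alone would give 1.08%. Ordered from the lowest log2 fold change upward, TNFSF10 was number 90 of the 15878 tested genes. Of the 603 tested genes with a mean FPKM in NC at least as high, 3 had a lower log2 fold change. TNFSF10 (ENSG00000121858.11) occupies 172505508 to 172523475 of chromosome 3, minus strand (GENCODE 44, GRCh38), no exon of another annotated gene overlaps its exons, and none of its 50-base stretches occurs in a transcript of another gene. In RNA from bulk cells, a lower level in each cell and fewer cells with the transcript cannot be told apart.

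The sequence in front of TNFSF10 is shown because it is the gene with the largest difference. These are the 250 bases before the RefSeq start of the gene on its own strand (GRCh38.p14, chr3:172523431-172523680, minus strand), with matches of the searched motifs in capitals:
TNFSF10: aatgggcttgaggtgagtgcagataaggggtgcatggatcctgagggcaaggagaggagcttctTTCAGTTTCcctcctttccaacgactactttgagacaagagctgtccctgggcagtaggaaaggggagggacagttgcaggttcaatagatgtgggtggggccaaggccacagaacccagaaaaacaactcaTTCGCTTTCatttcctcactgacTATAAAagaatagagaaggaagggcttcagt
The motifs were searched on both strands, and none overlapped a match of another motif. The TATA box was searched as TATAAA. For the GC box, a site known for the factor Sp1, the letters were GGGCGG. For AP-1, the dimer of Fos and Jun proteins, the letters were TGANTCA. The composite element of C/EBP and ATF proteins was searched as TGATGNAA. The interferon response element was searched as GAAANNGAA, and the kappa B element, the site of NF-kB, as GGGNNTTTC. TNFSF10 held a TATA box that begins 31 bases before the start, as did 10.7% of the 35116 promoters of the same length, and 2 matches of the interferon response element, 186 and 54 bases before the start, where 6.88% of promoters held at least 1. It held no match of the GC box, which 42.6% of promoters had. Its GC content was 49.6%, and the median of all promoters was 58.0%. These matches describe letters and were not tested for binding.

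The receptors of TRAIL lie next to each other on chromosome 8, TNFRSF10B from 23020133 to 23069031, TNFRSF10C from 23102921 to 23117445, TNFRSF10D from 23135588 to 23164027 and TNFRSF10A from 23190452 to 23225102 (GENCODE 44, GRCh38). These neighbours did not move alike. TNFRSF10B, the death receptor also called DR5, rose in OE. Its CPM was 38.6, 37.2 and 34.4 in NC and 61.0, 61.9 and 67.9 in OE, so the groups were well apart. The log2 fold change was 0.79 (standard error 0.06, 95% interval 0.66 to 0.92), a 1.73-fold higher level, and it stayed between 0.74 and 0.83 with 1 sample left out. Its exons overlap those of RHOBTB2 on the other strand, and reads of the pair cannot be told apart if the counting did not use strand.

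TNFRSF10A, the death receptor also called DR4, had a CPM of 11.9, 12.5 and 11.2 in NC and 13.8, 13.3 and 14.0 in OE, which do not overlap but lie close together. Its log2 fold change of 0.21 (standard error 0.08) was the smallest of those that passed. It no longer passed without NC replicate 1 (log2 fold change 0.21) or 3 (0.17) or without OE replicate 1 (0.20), 2 (0.23) or 3 (0.18), nor with DESeq2 (0.21) or upper quartile scaling (0.17). TNFRSF10D, the decoy receptor with a truncated death domain, had a CPM of 19.8, 20.8 and 20.4 in NC, which lay within the OE values of 17.3, 19.6 and 21.3. Its log2 fold change was −0.07 with a 95% interval from −0.24 to 0.10, so a rise of the size seen for TNFRSF10B lay outside the interval. TNFRSF10C, the decoy with a lipid anchor, was counted 1, 0 and 0 times in NC and 3, 0 and 1 times in OE. At this depth a count of 0 allows up to 3 counts, a CPM of up to 0.0753 to 0.0866 depending on the sample, and no fold change is given. Its exons overlap those of a pair of other annotated genes on the same strand, which share 28% of its 50-base stretches and had at most 12 counts in any sample. None of the 50-base stretches of any of the 10 genes occurs in another of the 10.

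The composition of the TRAIL receptor transcripts differed between the groups. FPKM, which is scaled to both transcript length and depth, allows levels of different genes to be set side by side. The summed FPKM of the 4 receptors was 16.2, 16.0 and 15.2 in NC and 20.1, 21.0 and 23.1 in OE. TNFRSF10B made up 44.3%, 42.3% and 41.7% of this sum in NC and 55.7%, 55.1% and 55.6% in OE. The decoy receptors, nearly all of it TNFRSF10D, made up 32.3%, 33.5% and 35.1% in NC and 22.6%, 24.7% and 24.8% in OE. The share of the death receptor TNFRSF10A was lower in OE too, at 21.6%, 20.2% and 19.6% against 23.4%, 24.2% and 23.3% in NC. Only the share of TNFRSF10B was thus clearly higher, against both the decoys and the other death receptor. The ligand moved the other way, and the ratio of TNFSF10 FPKM to the summed FPKM of its receptors was 4.204, 3.86 and 4.35 in NC but 0.869, 0.861 and 0.778 in OE. These shares and ratios are made from the same values as the differences above and say nothing of protein at the cell surface.

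**Figure D2:**
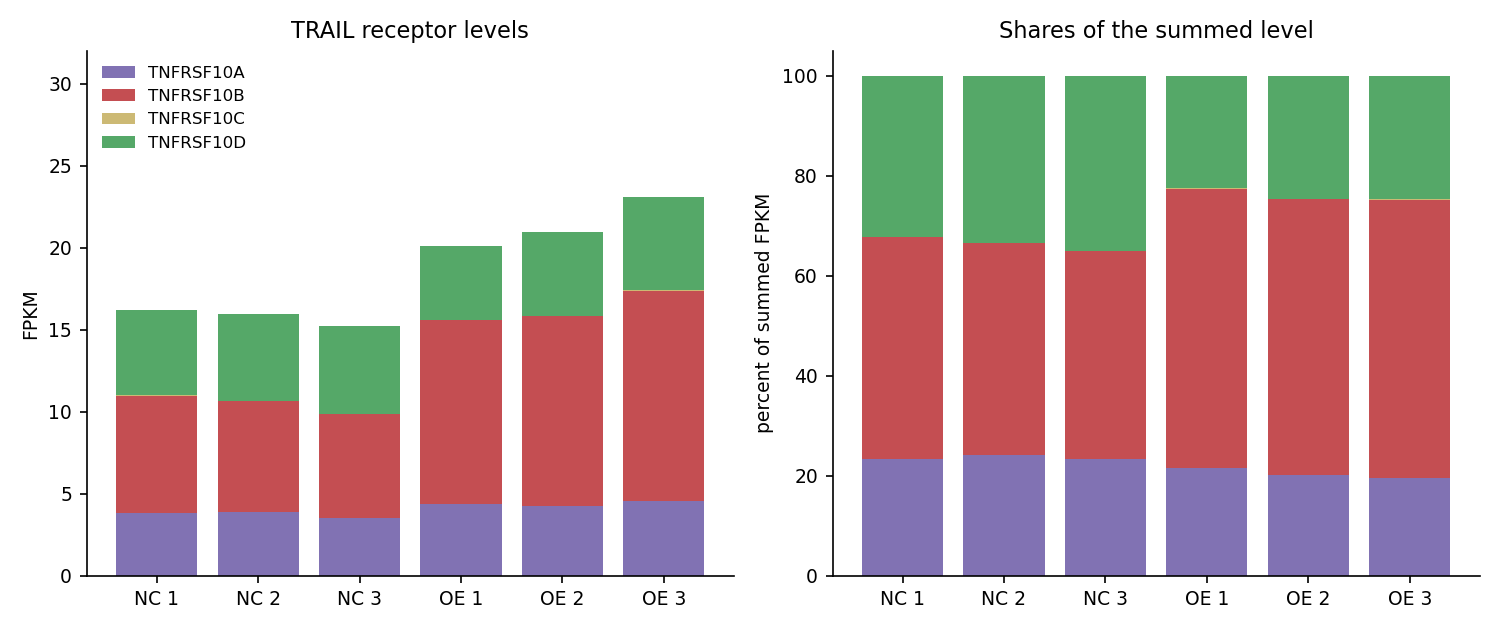
Stacked FPKM of the TRAIL receptors in each sample (left, FPKM) and their share of the sum (right, percent), for NC replicates 1 to 3 and OE replicates 1 to 3. TNFRSF10B takes 41.66% to 44.32% of the sum in NC and 55.1% to 55.74% in OE, and TNFRSF10C is too low to be seen in most bars.

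FAS, the death receptor of Fas ligand, rose in OE from a lower level. Its counts were 344, 334 and 362 in NC and 505, 542 and 518 in OE, and its CPM was 9.89, 9.49 and 10.07 in NC and 13.7, 13.7 and 14.3 in OE. The samples of the groups lay apart, and within each group they varied by 3.01% and 2.36%, less than the 5.37% and 4.38% of counting alone. The log2 fold change was 0.50 (standard error 0.09, 95% interval 0.32 to 0.68) and stayed between 0.47 and 0.52 with 1 sample left out. FAS lies on the plus strand of chromosome 10, from 88953813 to 89029605, and its exons overlap those of STAMBPL1 on the same strand and of ACTA2 on the other, so part of its counts is uncertain.

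The receptors of TNF differed from each other. TNFRSF1A, which carries a death domain, had a CPM of 54.7, 48.6 and 49.9 in NC and 48.9, 51.3 and 50.6 in OE, with overlapping groups. Its log2 fold change was −0.02 with a 95% interval from −0.14 to 0.10. TNFRSF1B, which lacks a death domain, was counted only 23, 28 and 38 times in NC and 58, 69 and 74 times in OE, and rose by 1.08 on the log2 scale (standard error 0.24, 95% interval 0.58 to 1.59). Its value moved most of the 9 when a sample was left out, from 0.94 without NC replicate 1 to 1.29 without NC replicate 3, and it was also below 1 without OE replicate 3 (0.97). In FPKM, the ratio of TNFRSF1A to TNFRSF1B was 79.5, 58.0 and 44.3 in NC but 29.6, 27.9 and 23.4 in OE, with all OE samples below all NC samples.

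TNFRSF9, the receptor 4-1BB, was also low and rose by about the same amount. It was counted 86, 84 and 78 times in NC and 163, 206 and 168 times in OE, with no overlap in CPM. The log2 fold change was 1.02 (standard error 0.15, 95% interval 0.71 to 1.33). It fell below 1 without NC replicate 3 (0.97) and without OE replicate 2 (0.95). TNFRSF12A, the TWEAK receptor Fn14, was the most expressed receptor in both groups. Its CPM was 81.0, 78.1 and 87.5 in NC and 115, 122 and 105 in OE, with the groups apart. The log2 fold change was 0.47 (standard error 0.06, 95% interval 0.35 to 0.60), a 1.39-fold higher level, between 0.42 and 0.52 with 1 sample left out. Of the 9 receptors' summed FPKM, TNFRSF12A made up 57.4%, 57.5% and 60.8% in NC but 63.0%, 63.5% and 58.8% in OE, and these shares overlapped. In GENCODE 44 on GRCh38, TNFRSF9 spans 7915871 to 7943165 and TNFRSF1B 12166991 to 12209228 of chromosome 1, TNFRSF1A spans 6328757 to 6342114 of chromosome 12, and TNFRSF12A spans 3018445 to 3022383 of chromosome 16, where its exons overlap those of CLDN6 on the other strand.

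**Figure D3:**
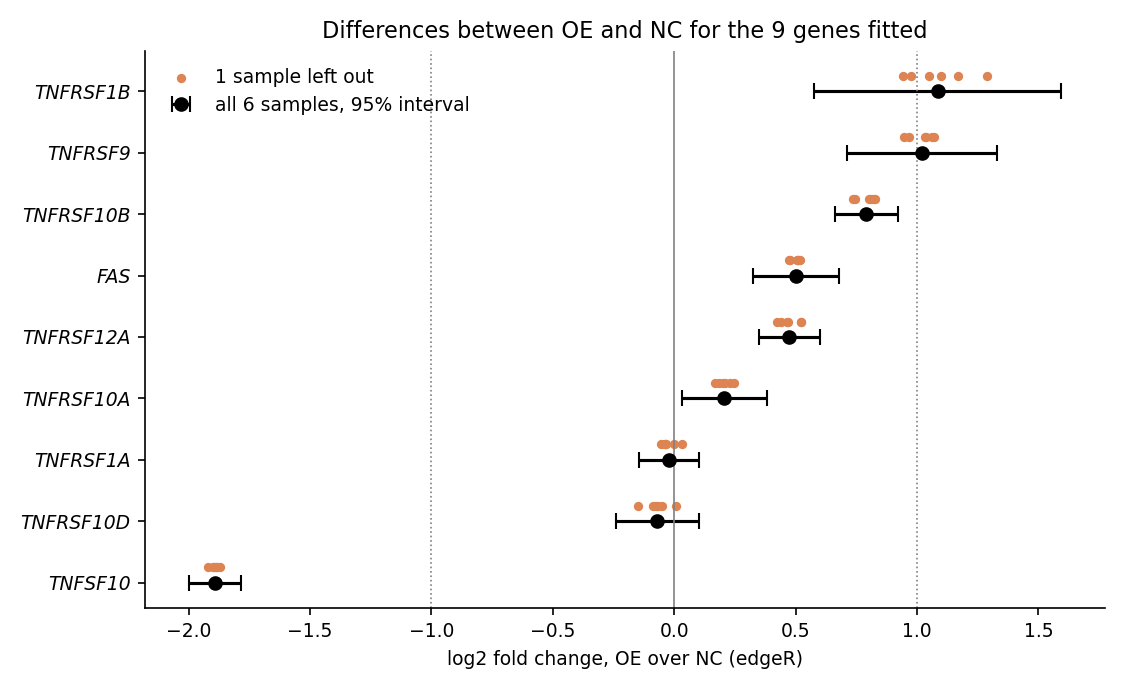
Log2 fold change of OE over NC from edgeR (horizontal axis) for the 9 genes fitted, with all 6 samples (black points, bars for the 95% interval) and with 1 sample left out in turn (orange points), the dotted lines marking a fold change of 2 in either direction. TNFSF10 stays between −1.92 and −1.87, while TNFRSF1B and TNFRSF9 fall on both sides of 1 when a sample is left out.

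The sequences in front of the 2 receptors with the largest rise are shown beside that of TNFSF10 above, again as the 250 bases before the RefSeq start, for TNFRSF9 at chr1:7940840-7941089 on the minus strand and for TNFRSF1B at chr1:12166741-12166990 on the plus strand (GRCh38.p14), with motif matches in capitals:
TNFRSF9: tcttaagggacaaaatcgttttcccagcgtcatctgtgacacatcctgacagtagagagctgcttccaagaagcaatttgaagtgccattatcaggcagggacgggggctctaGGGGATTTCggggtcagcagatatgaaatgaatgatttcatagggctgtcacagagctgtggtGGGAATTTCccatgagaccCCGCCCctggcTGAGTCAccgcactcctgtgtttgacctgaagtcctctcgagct
TNFRSF1B: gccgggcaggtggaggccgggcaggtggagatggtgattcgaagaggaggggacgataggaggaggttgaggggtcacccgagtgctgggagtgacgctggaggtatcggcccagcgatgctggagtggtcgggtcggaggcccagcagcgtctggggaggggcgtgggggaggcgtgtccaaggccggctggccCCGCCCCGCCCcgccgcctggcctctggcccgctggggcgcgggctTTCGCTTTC
TNFRSF9 held 2 matches of the kappa B element, 137 and 74 bases before the start, where 4.16% of all promoters held at least 1, an AP-1 match 44 bases before it, as did 6.57% of promoters, and a GC box 55 bases before it. TNFRSF1B held 2 GC boxes, 55 and 50 bases before the start, which overlap by a base, and an interferon response element directly before the start. Neither held a TATA box, and none of the 3 promoters printed held the C/EBP and ATF composite, which 3.14% of promoters had. The GC content was 51.6% for TNFRSF9 and 72.4% for TNFRSF1B. The RefSeq start used for TNFRSF9 also differs from the GENCODE 44 start. By GENCODE the gene spans 7915871 to 7943165 on the minus strand, so the printed stretch lies within it. The motif positions hold for the RefSeq start only.

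By FPKM the order of the genes in NC was TNFSF10 with 65.3 ± 3.32, TNFRSF12A with 42.1 ± 2.74, TNFRSF1A with 11.75 ± 0.875, TNFRSF10B with 6.76 ± 0.420 and TNFRSF10D with 5.30 ± 0.0781 (mean ± SD, n = 3 each). After these came TNFRSF10A with 3.73 ± 0.172, FAS with 1.62 ± 0.0643, TNFRSF9 with 0.340 ± 0.0200, TNFRSF1B with 0.203 ± 0.0513 and TNFRSF10C, at or below 0.0200 in each sample. In NC the 3 samples of each gene lay apart from those of the next. In OE the order changed at the top, with TNFRSF12A at 59.2 ± 4.15 above TNFSF10 at 17.8 ± 0.322 (SD, n = 3 each). TNFRSF10B, at 11.9 ± 0.858, reached the level of TNFRSF1A, at 11.7 ± 0.428, and the samples of the pair overlapped, as did those of TNFRSF10D and TNFRSF10A. In NC the FPKM of TNFSF10 was above that of 98.0% of the genes in the table, and in OE above that of 93.3%.

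The other genes of these pathways were taken from 4 lists with 71 genes, of which 51 could be tested. At an adjusted p under 0.05 from edgeR's quasi-likelihood test, 13 were higher and 17 lower in OE, shares of 25.5% and 33.3% beside the background of 24.9% and 23.7%. Past a fold change of 2, 3 were higher and 3 lower, where 1.73% and 3.79% of all tested genes were. Their median log2 fold change was −0.04. The counts given below for each list stand beside the same background of 24.9% higher and 23.7% lower, and no list was tested as a set. The lists were written with earlier results of these data known.

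Among the 17 other ligands of the TNF family, 6 were tested, none rose and 2 fell. LIGHT, encoded by TNFSF14, fell from a CPM of 1.57 ± 0.275 to 0.641 ± 0.211 (SD, n = 3 each) (log2 fold change −1.28, standard error 0.28, adjusted p = 0.00065 from edgeR). CD70, the ligand of CD27, fell by 0.25 on the log2 scale (adjusted p = 0.012 from edgeR), and did not pass without NC replicate 3 (adjusted p = 0.068 from edgeR). With the filter on low counts lifted, or without OE replicate 1, 1 ligand rose. TNF, the ligand of TNFRSF1A and TNFRSF1B, was counted 3, 15 and 4 times in NC and 6, 0 and 11 times in OE, and FASLG, the ligand of FAS, at most 4 times in any sample, and neither could be tested. TNFSF12, which encodes the TWEAK that binds TNFRSF12A and was also named after its values were seen, was counted at most 3 times. The readthrough gene TNFSF12-TNFSF13, which overlaps TNFSF12 on the same strand, was counted 324 to 366 times in NC and 243 to 266 in OE. TNFSF9, the ligand of TNFRSF9, which was named in the same way, was counted 507 to 596 times in NC and 459 to 570 times in OE and did not pass.

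Of 20 other TNF family receptors, 12 were tested, with 3 higher and 5 lower. TNFRSF19, known as TROY, fell most, from a CPM of 17.7 ± 0.927 to 5.81 ± 0.573 (SD, n = 3 each, log2 fold change −1.61, adjusted p = 1.9e-11 from edgeR). TNFRSF25, the death receptor DR3, fell by 1.02 on the log2 scale (adjusted p = 7.5e-05 from edgeR) and TNFRSF18, known as GITR, by 0.74 (adjusted p = 0.0008 from edgeR). TNFRSF14, the receptor of LIGHT, rose by 0.52 (adjusted p = 4.1e-06 from edgeR). NGFR, counted at most 32 times in any sample, rose by 1.14 (adjusted p = 0.015 from edgeR), but did not pass without NC replicate 2 (adjusted p = 0.08) or OE replicate 2 (adjusted p = 0.059). CD40, whose samples overlapped, rose by 0.15 (adjusted p = 0.038 from edgeR), but did not pass without NC replicate 1 or 2 or OE replicate 1 or 2 (adjusted p from 0.12 to 0.14, all from edgeR). The number higher was 1 without NC replicate 2, without OE replicate 2 and with DESeq2, and the number lower was 3 without OE replicate 1, without OE replicate 2, with DESeq2 and with limma on FPKM.

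Of 14 genes of the death signalling complex and its caspases, 13 were tested, 4 rose and 6 fell, all by less than a fold change of 2. FADD, the adaptor that joins death receptors to caspase-8, rose by 0.27 (adjusted p = 0.00085), CASP8 by 0.22 (adjusted p = 0.003) and MLKL, the executor of necroptosis, by 0.40 on the log2 scale (adjusted p = 4.2e-05, all from edgeR). CFLAR, which encodes the caspase-8 inhibitor FLIP, fell from a CPM of 165 ± 9.62 to 124 ± 4.40 (SD, n = 3 each, log2 fold change −0.41, adjusted p = 1.7e-06 from edgeR). BID, which links caspase-8 to mitochondria, fell by 0.50 (adjusted p = 8.3e-06) and the executioner CASP6 by 0.40 on the log2 scale (adjusted p = 0.00028, both from edgeR). TRADD fell by 0.66 (adjusted p = 0.00041), CASP10 by 0.59 (adjusted p = 0.00055) and RIPK1 by 0.27 on the log2 scale (adjusted p = 0.00095, all from edgeR). XIAP, whose samples overlapped, rose by 0.30 (adjusted p = 0.017 from edgeR). DIABLO, which encodes the inhibitor of XIAP released from mitochondria, was counted 20 to 35 times. The genes RP11-512M8.12 and RP11-512M8.13 overlap DIABLO on the same strand, so its level is uncertain. RP11-512M8.12 was counted 3520 to 3774 times in NC and 3861 to 4906 in OE, and RP11-512M8.13 716 to 738 and 684 to 930. RIPK3, the gene of this list that could not be tested, was counted at most 5 times in any sample. DIABLO, TRADD, CASP10, RIPK1, XIAP and RIPK3 were named after their values were seen.

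Of 20 genes listed for the ubiquitin complex that forms at TNFRSF1A and for adaptors and regulators around it, all were tested, 6 rose and 4 fell. The list is wider than the complex itself. It also leaves out TRADD and RIPK1, which belong to the complex, fell, and were counted with the death signalling genes above. TRAF1, an adaptor of TNF receptors, rose most, from a CPM of 2.29 ± 0.246 to 7.14 ± 0.691 (SD, n = 3 each, log2 fold change 1.64, adjusted p = 4.7e-09 from edgeR). RBCK1, the HOIL-1 subunit of the linear ubiquitin ligase, rose by 1.16 on the log2 scale (adjusted p = 4.6e-13 from edgeR). TNFAIP3, the ubiquitin-editing enzyme A20, rose by 0.82 (adjusted p = 8.2e-09 from edgeR). BIRC3, the ubiquitin ligase cIAP2, fell by 0.51 (adjusted p = 4.1e-07), TNIP1, a partner of A20, by 0.44 (adjusted p = 1.7e-06) and TRAF6 by 0.53 on the log2 scale (adjusted p = 0.0055, all from edgeR). The strand setting of the counting is unknown here. The exons of TNFRSF10A, TNFRSF10B, TNFRSF14, TNFRSF25, NGFR, CFLAR, FADD, RIPK1, CASP6, RBCK1, TNFAIP3 and BIRC3 overlap those of a gene on the other strand. Reads of the other gene may be among their counts.

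**Figure D4:**
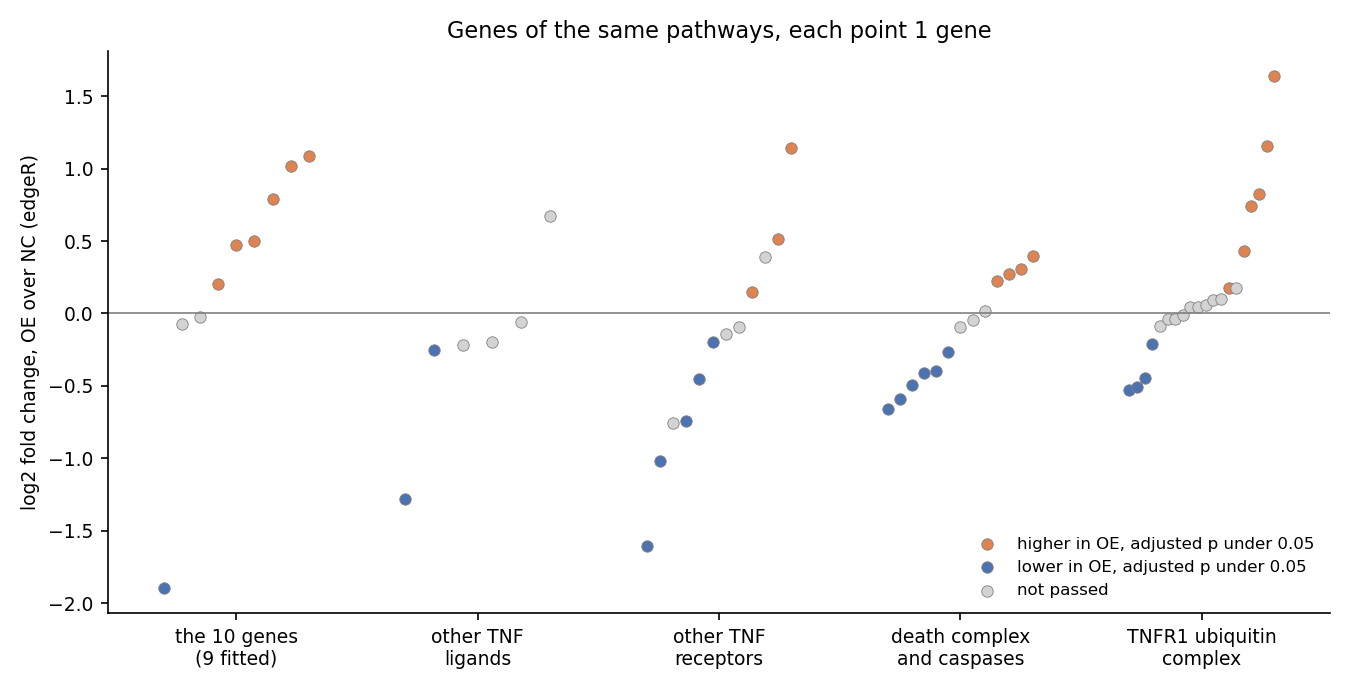
Log2 fold change of OE over NC from edgeR (vertical axis) for the 9 fitted genes described here and for the tested genes of the 4 lists, each point 1 gene, in orange where higher and in blue where lower at an adjusted p under 0.05 and in grey where neither. TNFSF10 at −1.89 lies below every point of the 4 lists, and TRAF1 at 1.64 lies above all others.

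The genes whose pattern was most like that of TNFSF10 were sought among 15869 other tested genes by Pearson's r of log2 CPM over the 6 samples. The closest were TAGLN, an actin-binding protein of smooth muscle, MAGED1, NPY1R, a receptor of neuropeptide Y, PRSS23 and GPC4, a cell surface proteoglycan, with r from 0.99937 to 0.99955. Their log2 fold changes were −2.06, −1.34, −1.10, −1.19 and −0.91. The samples form a pair of groups, so r mainly follows the difference between NC and OE, and 312 genes had an r above 0.99. The study also ran RT-PCR on the same RNA. There MAGED1 was higher in OE, without statistical significance, and IL-6, CCL2 and TP53INP1, also lower by sequencing, were higher. Of genes higher by sequencing, G0S2, VEGFA and NUPR1 were higher by RT-PCR too, with statistical significance. GADD45A was higher there but is not listed as significant, and TRIB3 was lower, with significance. TNFSF10 is not among the genes the study names for RT-PCR.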

How the data were processed

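HK-2 cells, 3 NC and 3 OE samples, were sequenced from stranded mRNA libraries. The authors trimmed the reads, used HISAT2 to align them to GRCh38 and counted those that mapped to a single place, and the deposited counts are not normalized. The authors computed the deposited FPKM values from the same reads, given to 2 decimals. The counting program, its strand setting and the annotation are not given in the sources used here, and the submitters' processing notes also name a mouse build, while all gene identifiers read here were human. GENCODE 44, the source of coordinates, held 99.8% of the 31369 identifiers once version numbers were removed. Promoters were those of RefSeq (GRCh38.p14), and an entry was used for 5 of the 10 genes. Entries on chromosome 8, where the TRAIL receptors lie, were left out of the search for these genes.

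Groups came from the genotype labels. The deposited counts were fitted in R 4.3.3 by the quasi-likelihood F-test of edgeR 4.0.16 after filterByExpr and TMM, with Benjamini-Hochberg adjustment over 15878 genes, after a test on simulated data. Standard errors were derived from the log2 fold change and its F statistic. Alternatives were DESeq2 1.42.0, limma 3.58.1 on log2 FPKM with a pseudocount of 1 or 0.1, other scalings, filters, a replicate block, a fold threshold and leaving out each sample. Total counts of 34635770 to 39850802 limit precision for genes with few counts, and limits from counts of 0 cover counting error only. The study calls its replicates biological, but the labels and methods do not describe separate cultures, so p-values measure the spread between these samples. Within groups, the mean chi-square per gene between replicates was 4.83 to 11.0, where sampling noise gives about 1.

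The 10 genes and all lists were chosen with earlier results of these data known. TNFSF9, TNFSF12, DIABLO, TRADD, RIPK1, RIPK3, CASP10 and XIAP were named after their values were seen. The other genes named from the lists are TNF, FASLG and up to 3 per direction and list with the smallest p among those past an adjusted p of 0.05. Also named are the 5 genes most correlated with the member of largest log2 fold change and a mean count of at least 100. The summed level of the renal epithelial marker list is not reported here. Plots used matplotlib 3.10.9.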

Additional observations from a re-analysis of the deposited data

How the results depend on the processing

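Under the 15 settings tried, TNFSF10 stayed lower and past an adjusted p of 0.05 in each, as did TNFRSF10B, FAS, TNFRSF1B, TNFRSF9 and TNFRSF12A upward in each fit. With each sample left out in turn, 5 to 6 of the 9 genes were higher and 1 lower, and of the pathway genes 10 to 13 were higher and 14 to 17 lower. In the same fits, 3463 to 3795 of all 15878 tested genes were higher and 3300 to 3708 lower. Asking for a fold change above 2 or below 0.5 moved the counts most, from 6 to 2 higher among the 9 genes, to 3 higher and 3 lower among the pathway genes, and to 274 higher and 601 lower among all tested genes. TNFRSF10A passed in 4 of the 14 other fits, and NC replicate 2 was the single sample whose loss kept it past the threshold. The log2 fold change of TNFRSF10D ran from −0.15 to 0.01 with a sample left out, above 0 without OE replicate 1 (0.0067), and that of TNFRSF1A from −0.0555 to 0.0303, above 0 without NC replicate 1, and neither passed in any fit. TNFRSF9 fell below a fold change of 2 with upper quartile scaling and TNFRSF1B and TNFRSF9 did so with limma on FPKM, where low values are compressed. Samples that share a number did not move together (correlations of deviations from the group means of −0.00319, −0.0663 and −0.0542 over the tested genes), so the numbers were not taken as pairs. With the replicate number as a block, 5 of the 9 genes were higher (TNFRSF10A did not pass) and 1 lower, 11 pathway genes were higher and 14 lower, the other TNF receptors lower numbered 3, and CD40 did not pass. Of all tested genes, 3607 were higher and 3458 lower with this block. The scalings tried left the median over all tested genes within 0.1 of its value. Depth limits TNFRSF10C, TNF and FASLG, which could not be tested, and TNFRSF1B and NGFR, which rest on few counts.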
